A study of Mus musculus with 6 samples.

Results

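Matricellular proteins were examined in the lungs of hSRY-ON and hSRY-OFF mice through 10 genes: Tnc, Postn, Thbs1, Thbs2, Sparc, Sparcl1, Ctgf, Cyr61, Fn1 and Tgfbi. Every probe whose symbol equalled one of these names was taken, which gave 18 probes for 9 of the 10 genes, out of 25697 probes for 18138 symbols on the array. Fn1, which encodes fibronectin, was not analysed here. The other genes were chosen by the family of their proteins, though with earlier results of these data known. Tnc was chosen because its probes had the lower signal in hSRY-ON lungs. Its difference between the groups is therefore given as a description, and no test of it is reported. The lungs were those of FVB males (FVB/N in the study's methods) aged 6 days, 3 hSRY-OFF and 3 hSRY-ON, and total RNA of each mouse was measured on 1 BeadChip. The transgene, Signalox-hSRY, is a single copy placed at the H11 locus, in which the CAG promoter, active in most cell types, drives a red fluorescent protein until Cre recombinase removes it and brings human SRY and EGFP under that promoter. The name hSRY-OFF is given to mice with the transgene not recombined. The hSRY-ON mice had recombined it as single-cell embryos with Cre from the oocytes of Ddx4-Cre mothers, and those used for arrays did not carry Ddx4-Cre themselves. The study also uses as controls littermates without Signalox-hSRY, with or without Ddx4-Cre, so the genotype of the hSRY-OFF mice rests on their label.

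Matricellular proteins are secreted into the extracellular matrix, where they act on cell adhesion, migration and growth factor activity more than they hold the tissue together. Most of them are abundant in developing and healing tissue and scarce in resting adult organs. They bind integrins and other surface receptors, and many of their genes respond to TGF-beta, to the YAP and TAZ coactivators with their TEAD partners, or to serum response factor. In the lung after birth, mesenchymal cells of the growing septa make several of them.

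Of the 18 probes, 15 were detected (detection p under 0.05) on 3 or more arrays and so were tested, and these covered 8 genes. The single probe of Postn, a fasciclin protein of developing mesenchyme, was not detected on any array, and 1 probe each of Tnc and Cyr61 was seen above background only once, on a hSRY-OFF array. Values below are normalized log2 intensities after background correction, and a probe is called when its limma p, adjusted by Benjamini-Hochberg over all 13841 tested probes, is under 0.05. Over the whole array 26.9% of the tested probes were called, 13.3% lower and 13.6% higher in hSRY-ON. Tnc was lower on every tested probe, Tgfbi fell, Ctgf rose, and no probe of Thbs1, Thbs2, Sparc, Sparcl1 or Cyr61 was called. Leaving Tnc aside, 10 probes of 7 members were tested, of which 2 were called lower (20%, against 13.3% of all probes) and 1 higher. That is 30% called, near the 26.9% of the whole array, and the calls belong to Tgfbi and Ctgf. In bulk RNA, fewer cells of a type and less RNA per cell cannot be told apart.

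Promoter sequence upstream of the annotated transcription start was available for 6 of the 10 genes (Tnc, Postn, Thbs2, Sparc, Cyr61 and Tgfbi; RefSeq, GRCm38.p6). Those of Tnc (the first of 2 start sites) and Tgfbi are shown because these are the members with lower signal on several probes, and those of Postn and Cyr61 because they hold the matches described next. Each run is the 250 bases before the start, read 5′ to 3′ on the gene's strand, and capitals mark matches to a TEAD core or an SRY/SOX core.
Tnc, chr4:64047016-64047265, minus strand: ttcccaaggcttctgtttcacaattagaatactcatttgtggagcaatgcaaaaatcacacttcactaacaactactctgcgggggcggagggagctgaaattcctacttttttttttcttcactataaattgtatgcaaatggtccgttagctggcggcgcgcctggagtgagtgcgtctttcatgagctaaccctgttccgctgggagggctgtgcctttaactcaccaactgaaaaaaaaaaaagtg
Tgfbi, chr13:56609336-56609585, plus strand: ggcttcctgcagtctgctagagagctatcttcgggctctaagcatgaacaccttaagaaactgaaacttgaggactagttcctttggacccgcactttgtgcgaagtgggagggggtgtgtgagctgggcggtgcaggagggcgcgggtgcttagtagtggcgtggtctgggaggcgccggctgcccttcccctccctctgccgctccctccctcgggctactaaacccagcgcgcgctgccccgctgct
Postn, chr3:54359017-54359266, plus strand: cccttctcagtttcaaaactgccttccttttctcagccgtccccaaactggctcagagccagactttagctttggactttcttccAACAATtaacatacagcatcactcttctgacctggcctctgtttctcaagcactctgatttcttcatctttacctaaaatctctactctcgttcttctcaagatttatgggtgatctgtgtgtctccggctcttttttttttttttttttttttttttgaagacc
Cyr61, chr3:145649986-145650235, minus strand: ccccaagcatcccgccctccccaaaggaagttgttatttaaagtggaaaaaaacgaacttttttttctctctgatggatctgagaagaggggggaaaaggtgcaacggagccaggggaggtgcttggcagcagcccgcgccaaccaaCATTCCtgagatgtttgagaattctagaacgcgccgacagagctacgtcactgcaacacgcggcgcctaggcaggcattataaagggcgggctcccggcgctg
The Tnc and Tgfbi windows have no capitals, as neither core was found in them. The letters searched were AACAAT (reverse complement ATTGTT) for the core bound by SRY and SOX proteins and GGAATG (reverse complement CATTCC) for the core bound by TEAD proteins, on both strands, together with the CArG box bound by serum response factor. The TEAD core was found once, 103 bases before the start of Cyr61 and in no other of these 6 genes, while 12.6% of 32851 mouse promoter windows of this length held it. The SRY/SOX core was found only 165 bases before 1 of the start sites of Postn, against 9.42% of all windows. No CArG box was found in these windows, against 1.47% of all. These are matches of letters in short windows and say nothing on binding in these lungs.

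Tnc encodes tenascin C, a large hexameric glycoprotein that loosens the attachment of cells to fibronectin and marks growing mesenchyme. On its brightest probe, ILMN_2463181, the hSRY-OFF arrays gave 13.07, 13.21 and 13.02 and the hSRY-ON arrays 10.90, 10.79 and 11.74 on the log2 scale. The groups were far apart, and hSRY-ON replicate 3 was the nearest to hSRY-OFF. The means were 13.10 ± 0.10 (SD, n = 3) and 11.14 ± 0.52 (SD, n = 3), a log2 difference of -1.96, or 3.89-fold lower in hSRY-ON. The deposited intensities of the same probe, before any processing, were 8366, 8497 and 9413 in hSRY-OFF and 1873, 1903 and 3801 in hSRY-ON.

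The other Tnc probes gave the same picture. ILMN_2463180 was at 12.76, 12.97 and 12.75 in hSRY-OFF and at 10.67, 10.52 and 11.35 in hSRY-ON, a log2 difference of -1.98. ILMN_2485085 was at 9.82, 9.96 and 9.26 against 6.496, 6.40 and 7.46, a difference of -2.90. ILMN_1236724 was at 8.75, 8.99 and 8.35 against 5.81, 6.25 and 6.90, a difference of -2.38. In none of these probes did a hSRY-ON array reach the lowest hSRY-OFF array. ILMN_1251943, detected on all hSRY-OFF arrays but on 1 hSRY-ON array, was at 7.36, 7.97 and 6.996 against 4.95, 4.98 and 5.67, a difference of -2.24. The probe that did not pass the filter, ILMN_2454497, was at 5.16 ± 0.17 (SD, n = 3) and 4.55 ± 0.10 (SD, n = 3). Thus all 5 tested probes had non-overlapping groups, as did 46.6% of all tested probes (24.1% with hSRY-ON lower and 22.4% with hSRY-ON higher), and in all 5 the highest hSRY-ON value was that of replicate 3. The size of the difference on the dimmer probes depended on the background correction. Without it, the differences were -1.89 and -1.90 on ILMN_2463181 and ILMN_2463180, but -1.93, -1.33 and -0.87 on ILMN_2485085, ILMN_1236724 and ILMN_1251943. The difference lay between -2.25 and -1.77 over 17 other fits for ILMN_2463181, and between -2.47 and -0.87 over 16 for ILMN_1251943.

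**Figure D1:**
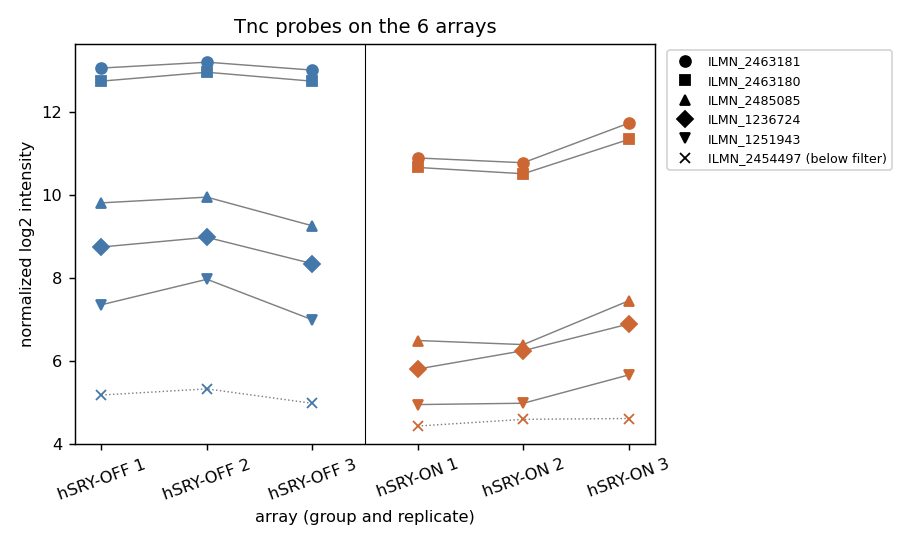
Normalized log2 intensity (vertical axis) of the 6 Tnc probes on the 6 arrays (horizontal axis, blue hSRY-OFF, orange hSRY-ON), with a symbol for each probe and thin lines joining the arrays of a group. The 5 tested probes lie lower on each hSRY-ON array than on every hSRY-OFF array, and hSRY-ON replicate 3 is the highest of its group; the dotted probe, ILMN_2454497, is at the level of background.

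Tgfbi encodes a secreted fasciclin-domain protein that binds collagen and integrins and, as its name says, is induced by TGF-beta. Its probe ILMN_2834379 was at 13.31, 13.24 and 13.32 in hSRY-OFF and at 11.999, 11.84 and 12.52 in hSRY-ON. The hSRY-OFF arrays lay close together and above all hSRY-ON arrays. The log2 change was -1.17 ± 0.19 (SE), a 2.25-fold fall (limma, adjusted p = 0.00618). The second probe, ILMN_2727663, was at 11.97, 11.96 and 11.90 against 10.37, 10.34 and 10.99. It fell by 1.38 ± 0.19 (SE) on the log2 scale (limma, adjusted p = 0.00395). On both probes hSRY-ON replicate 3 was again the nearest to hSRY-OFF. Both calls held in all 17 other fits of the groups, in which the change ranged from -1.37 to -1.03 for ILMN_2834379 and from -1.59 to -1.26 for ILMN_2727663. Of the fasciclin proteins, Tgfbi fell, while the single probe of Postn gave no signal above background, at 4.55 ± 0.05 (SD, n = 3) and 4.66 ± 0.08 (SD, n = 3). A single undetected probe cannot tell whether Postn was expressed in these lungs.

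Ctgf and Cyr61 encode CCN2 and CCN1, secreted proteins of the CCN family that bind integrins and heparan sulphate and are widely used as readouts of YAP and TAZ. Ctgf moved opposite to Tnc and Tgfbi. Its probe ILMN_2909150 was at 13.49, 13.51 and 13.64 in hSRY-OFF and at 14.59, 14.64 and 14.13 in hSRY-ON, and the groups did not overlap. It rose by 0.90 ± 0.16 (SE) on the log2 scale, or 1.87-fold (limma, adjusted p = 0.00905). The smallest rise was that of hSRY-ON replicate 3, the array with the smallest differences in Tnc and Tgfbi. The call held in all 17 other fits, with changes from 0.81 to 1.08 and adjusted p from 0.00155 to 0.0445.

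Cyr61 was not called. Its probe ILMN_2710253 was at 10.01, 10.06 and 9.68 in hSRY-OFF and at 10.13, 9.91 and 9.61 in hSRY-ON, with overlapping groups. The change was -0.03 with a 95% interval from -0.45 to 0.39 (limma, adjusted p = 0.907), an interval that leaves out a 2-fold change in either direction. The probe ILMN_2794645 was at 7.44, 7.77 and 7.27 against 8.40, 7.06 and 6.31, so that the hSRY-ON arrays spread on both sides of hSRY-OFF. Its change of -0.23 had a wide 95% interval, from -1.37 to 0.90 (limma, adjusted p = 0.747). Whether the changes of Ctgf and Cyr61 differ from each other was not tested.

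**Figure D2:**
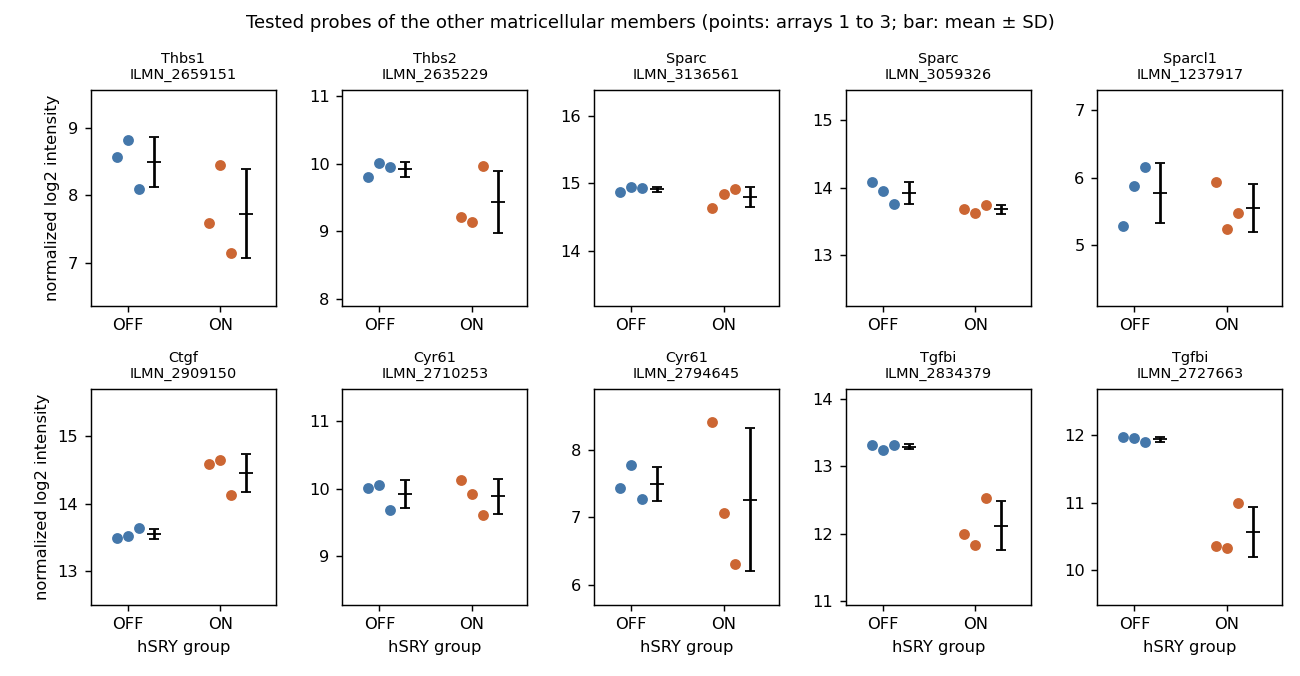
Normalized log2 intensity (vertical axes, each spanning the same range of log2 units) of the 10 tested probes of the members other than Tnc, with hSRY-OFF arrays in blue, hSRY-ON arrays in orange and the mean ± SD (n = 3) as a black bar. The groups are clearly apart for Ctgf, which is higher in hSRY-ON, and for both probes of Tgfbi, which are lower, whereas for most other probes the arrays of both groups share a range.

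Thbs1 and Thbs2 encode thrombospondins, trimeric proteins that restrain angiogenesis, and the first also activates latent TGF-beta. Thbs1 (ILMN_2659151) was at 8.57, 8.82 and 8.09 in hSRY-OFF and at 7.59, 8.45 and 7.14 in hSRY-ON. The groups overlapped through hSRY-ON replicate 2. The change was -0.77 with a 95% interval from -1.58 to 0.05 (limma, adjusted p = 0.140). Without hSRY-ON replicate 2, the array within the hSRY-OFF range, it was -1.12 and called (limma, adjusted p = 0.0365). Without any other single array it was not called (limma, adjusted p from 0.132 to 0.338). Platelets are rich in thrombospondin-1. Of 7 platelet marker genes tested 1 was called lower and none higher, beside 13% lower and 14.9% higher among all genes. The median log2 change of these markers was 0.28. The summed platelet signal was 1269 to 1565 in hSRY-OFF and 1289 to 1795 in hSRY-ON, and its part in the Thbs1 values was not tested. Thbs2 (ILMN_2635229) was at 9.80, 10.01 and 9.95 against 9.21, 9.13 and 9.97. Here hSRY-ON replicate 3 lay among the hSRY-OFF arrays while the other two were lower. The change was -0.48 with a 95% interval from -1.02 to 0.06 (limma, adjusted p = 0.159). Without hSRY-ON replicate 3 it was -0.75 and called (limma, adjusted p = 0.00935). Without any other single array it was not called (limma, adjusted p from 0.235 to 0.370).

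Sparc encodes osteonectin, a collagen-binding protein, and Sparcl1 encodes its relative hevin. The Sparc probe ILMN_3136561 was at 14.87, 14.94 and 14.93 in hSRY-OFF and at 14.63, 14.84 and 14.91 in hSRY-ON. Its change was -0.12 with a 95% interval from -0.41 to 0.17 (limma, adjusted p = 0.503), and the sign turned with median scaling. The probe ILMN_3059326 was at 14.08, 13.95 and 13.75 against 13.68, 13.62 and 13.75, with a change of -0.25 and a 95% interval from -0.55 to 0.06 (limma, adjusted p = 0.193). The intervals of both Sparc probes leave out a 2-fold change in either direction. Sparcl1 (ILMN_1237917) was dim and was missed on 1 hSRY-ON array, at 5.28, 5.88 and 6.16 against 5.94, 5.23 and 5.47. Its change of -0.22 had a 95% interval from -0.86 to 0.41 (limma, adjusted p = 0.568).

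**Figure D3:**
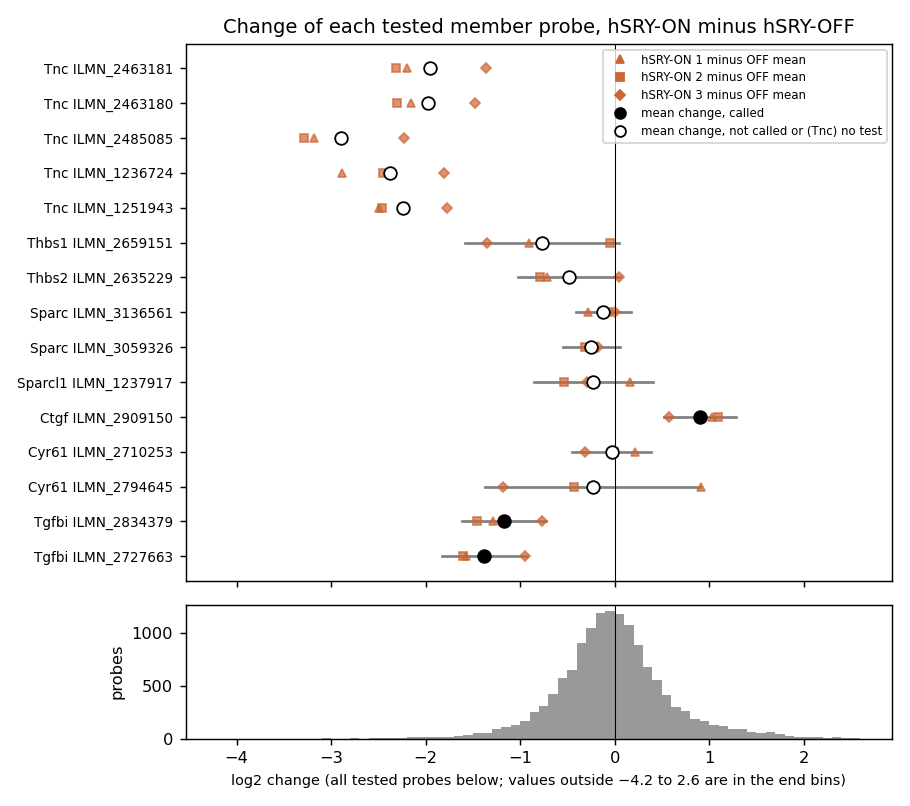
Log2 change (horizontal axis) of the 15 tested member probes, as the mean (circle, filled where called) and each hSRY-ON array minus the hSRY-OFF mean (orange), with 95% intervals as grey lines for all but Tnc, which was chosen for its difference. Below, a histogram of the changes of all 13841 tested probes on the same axis shows that the Tnc and Tgfbi probes lie in its left tail and Ctgf to the right of its centre.

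The members were also set beside the brightest Tnc probe over the 6 arrays. Pearson's r was between 0.977 and 0.999 for the other tested Tnc probes, 0.994 and 0.999 for the Tgfbi probes and -0.996 for Ctgf. It was 0.851 for Thbs2, 0.680 and 0.812 for Sparc, 0.486 for Thbs1, 0.290 for Sparcl1 and -0.09 and -0.01 for the Cyr61 probes. Among 2652 probes of other genes with an SD of at least 0.5 over the arrays, those with the highest r were Tmem132a (0.999), Cdkn2c (0.998), Cd248 (0.998), Samd14 (0.998) and Gpr20 (0.997). Cdkn2c encodes an inhibitor of the kinases of G1 phase, and Cd248 encodes endosialin, a surface protein of fibroblasts and pericytes. Cd248 was at 12.28, 12.30 and 12.32 in hSRY-OFF and at 10.13, 10.07 and 10.93 in hSRY-ON, a log2 difference of -1.93, close to that of Tnc. The 6 points share the step between the groups and the place of hSRY-ON replicate 3, so a high r is given as a description. That array was the hSRY-ON array nearest to the hSRY-OFF mean in 49.2% of all called probes, against 35.5% for replicate 1 and 15.3% for replicate 2.

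The wider family had both directions. Of 17 other matricellular genes listed, 14 were on the array and 8 were tested, of which 2 were called lower and 2 higher, with a median log2 change of -0.12 (over all 10292 genes tested, by their brightest probe, 27.9% were called, 13% lower and 14.9% higher, with a median of -0.01). Wisp1, which encodes the CCN protein WISP1, fell by 1.37 (limma, adjusted p = 0.00241), and its second probe fell by 1.96. Smoc1, a calcium-binding basement membrane relative of SPARC, rose by 1.602 (limma, adjusted p = 0.00970), from a probe detected on 1 hSRY-OFF array. Tnxb, the tenascin of elastic and collagen-rich tissue, rose by 0.73 (limma, adjusted p = 0.0368) on its brightest probe, but its other 2 tested probes changed by 0.32 and 0.03 and were not called. Thbs3 likewise fell by 0.67 (limma, adjusted p = 0.0322) on its brightest probe and changed by -0.22 and -0.35 on the others, which were not called. The number called was 2 without any single hSRY-OFF array. Tnn changed by 0.86 (limma, adjusted p = 0.0510) and Spp1, osteopontin, by -0.85 (limma, adjusted p = 0.0570). Within the CCN family, therefore, Ctgf rose, Wisp1 fell and Cyr61 was not called, and within the tenascins Tnc was lower and the tested probes of Tnn and Tnxb had positive changes.

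Of 13 tested receptor genes 1 was lower and 2 higher, near the 27.9% called among all genes, and the median log2 change was 0.19. Itgb6, whose integrin activates TGF-beta on epithelium and binds fibronectin and tenascin C, fell by 0.59 (limma, adjusted p = 0.00992) and was lower on each of its 3 tested probes, of which 2 were called. Egfr, the EGF receptor to which tenascin C repeats can bind, rose by 0.996 (limma, adjusted p = 0.00860) on its brightest probe, but its other 3 probes changed by between -0.04 and 0.51 and were not called. Tlr4, an innate immune receptor that also recognises tenascin C, rose by 0.88 (limma, adjusted p = 0.0207). Itga9 and Itgav, which encode partners in tenascin C receptors, changed by -0.46 (limma, adjusted p = 0.0583) and -0.57 (limma, adjusted p = 0.151). The number of receptors called was 5 without hSRY-ON replicate 1.

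Among 13 tested genes of the TGF-beta, YAP/TAZ and SRF machinery, 5 were called lower and 1 higher, with a median log2 change of -0.51. Among all genes tested, 27.9% were called, 13% lower and 14.9% higher. Tead2, a DNA-binding partner of YAP and TAZ, fell by 1.05 (limma, adjusted p = 0.00369), from 11.84 ± 0.11 (SD, n = 3) to 10.79 ± 0.20 (SD, n = 3). Srf, which encodes serum response factor, fell by 1.03 (limma, adjusted p = 0.00572) and its second probe fell by 0.90. The ligand gene Tgfb3 fell by 0.95 (limma, adjusted p = 0.0110). Wwtr1, which encodes TAZ, fell by 0.73 (limma, adjusted p = 0.0360), whereas Yap1 changed by 0.00 with an adjusted p of 0.982. Prrx1, a mesenchymal homeobox gene, fell by 0.66 (limma, adjusted p = 0.0200) on its brightest probe, with -0.38 and 0.13 on 2 others that were not called. The co-receptor gene Tgfbr3 rose by 1.05 (limma, adjusted p = 0.0108) on one probe and changed by 0.20, without a call, on another. The count of 6 calls was 3 without hSRY-OFF replicate 2.

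The YAP and TAZ target genes other than the CCN genes did not move one way. Of 12 tested, 2 were higher and 2 lower, beside 27.9% called among all genes, with a median log2 change of 0.31. Igfbp3, which encodes a carrier of insulin-like growth factors, rose by 2.48 (limma, adjusted p = 0.0115), from 8.51 ± 0.14 (SD, n = 3) to 10.998 ± 1.08 (SD, n = 3). Nuak2, a kinase of the AMPK family, rose by 1.16 (limma, adjusted p = 0.0114). Rbms3, an RNA-binding protein, fell by 0.92 (limma, adjusted p = 0.00905), and Fjx1, a Golgi kinase homologue, fell by 0.68 (limma, adjusted p = 0.0359). Ankrd1, a muscle and stress response gene, changed by 1.12 (limma, adjusted p = 0.0633) on one probe and by 0.25 on another. The number called was 2 without hSRY-OFF replicate 2.

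**Figure D4:**
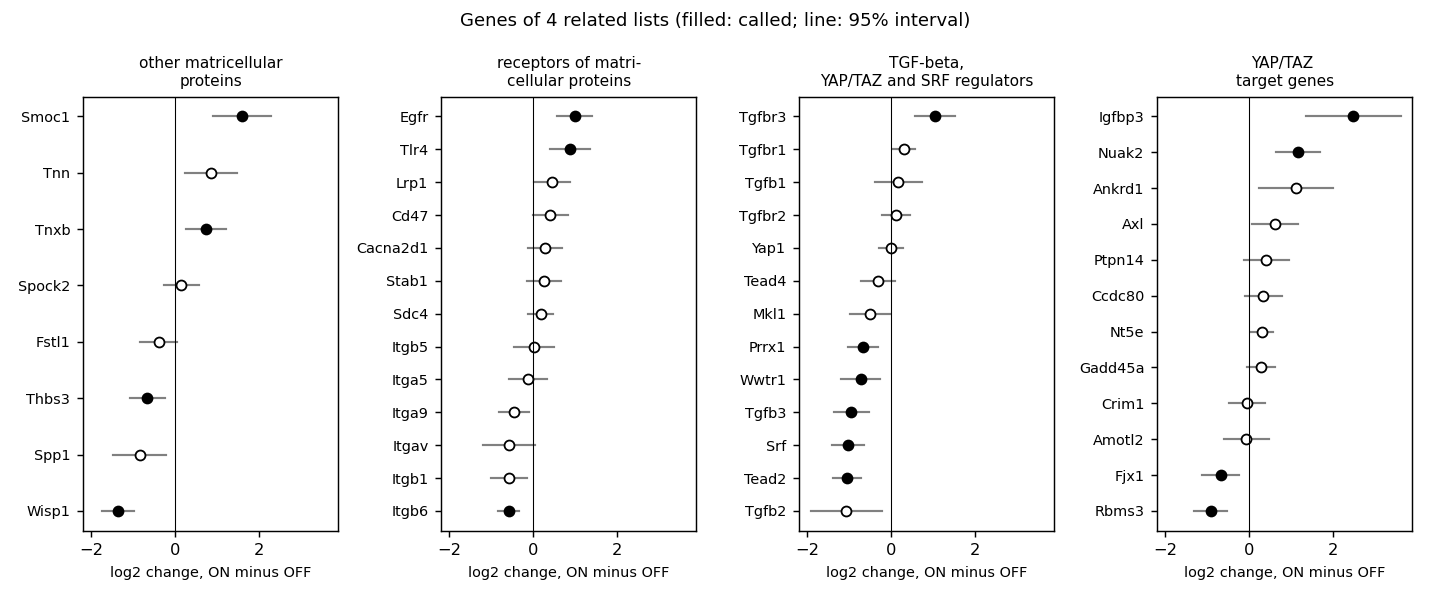
Log2 change with its 95% interval (horizontal axes) for the tested genes of 4 lists, each by its brightest probe, with filled circles for called genes. The matricellular, receptor and YAP/TAZ target lists hold calls on both sides of 0, and 5 of the 6 calls in the regulator list lie below 0.

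The tissue and the other cell types were examined by marker genes, beside 13% called lower and 14.9% called higher among all genes. All 8 lung epithelial markers were tested and detected on all arrays, 2 of them called higher (Foxj1 by 1.15) and none lower, with a summed signal of 84135 to 89186 in hSRY-OFF and 86128 to 93470 in hSRY-ON. Of 12 fibroblast and smooth muscle markers, all tested, 5 were lower, among them Wnt2 (-2.18), Acta2 (-0.62) and Col1a1 (-0.60). Other tested Acta2 probes changed by -1.15 and -1.13, both called, and by -0.58, not called. Dcn was higher on the brighter of its probes (0.98) but not called on the other (0.57). The summed signal of the 12 markers was 52518 to 56012 in hSRY-OFF and 39400 to 49728 in hSRY-ON. Of 7 endothelial markers tested, 4 were lower (Tie1 fell by 0.82), with a summed signal of 50790 to 53852 against 34739 to 37278. Kdr did not pass the detection filter. Of 7 macrophage markers tested, 5 were higher (Marco by 2.55), with sums of 24345 to 26451 against 34481 to 42173. Csf1r (0.41) and Emr1 (0.09) were not called, and Itgax did not pass the detection filter. Of 8 proliferation genes, 7 were lower (Mcm3 fell by 1.70). Their sums were 10696 to 13326 in hSRY-OFF and 3617, 3472 and 7330 in hSRY-ON replicates 1, 2 and 3, so that replicate 3 was the nearest to hSRY-OFF here as well. Of 7 platelet markers 1, Ppbp, was lower (-0.59), while Pf4 changed by 0.70 and was not called (limma, adjusted p = 0.230). Of 7 cardiac markers 2 were lower and Nppa was higher by 5.55, with sums of 7159 to 9636 against 4452 to 9387. These sums include Nppa, at 5.11, 5.32 and 6.94 in hSRY-OFF and 12.32, 12.39 and 9.30 in hSRY-ON. They therefore do not give the level of the other cardiac markers. Of 3 cartilage markers tested (Col2a1, Col9a1 and Chad), 1 was lower (Col2a1 fell by 1.75) and 1 higher, with a median log2 change of 0.44. Only Col2a1 had a negative change, and the sums were 454 to 500 against 651 to 1182. Acan, Matn1 and Col11a1 did not pass the detection filter. The hepatocyte markers Alb, Ttr and Fgb were not detected on any array. Of the hepatocyte list 3 of 8 (Apoa1, Ahsg and Trf) were tested and all were higher, with sums of 5364 to 5884 against 7324 to 10395. Apoa1 and Ahsg were below detection in hSRY-OFF, so the sums there came mainly from Trf. Both passed the detection filter only through hSRY-ON arrays. Their higher signal there followed from the filter, and their calls are given as a description. Ahsg, detected on no hSRY-OFF array, was at least 3.97-fold higher. The part of these cell types in the values of the matricellular genes was not tested. Arrays correlated at 0.991 to 0.993 within hSRY-OFF, 0.972 to 0.980 within hSRY-ON and 0.935 to 0.959 between groups, and 13191 to 14134 probes were detected per array. Of the 13841 probes, 3729 were called in all, with 1507, 1624 and 2104 without hSRY-OFF replicates 1, 2 and 3 and 2397 without hSRY-ON replicate 2.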

How the data were processed

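Biotin-labelled cRNA from lungs of 3 hSRY-OFF and 3 hSRY-ON male mice was hybridised to MouseRef-8 v2.0 BeadChips. The authors deposited, for each probe and array, an intensity (mean bead signal, linear, neither background-corrected nor normalized) and a detection p-value against negative control probes. The software behind them is not given in the sources used here. The study used TCC, a method for counts. As the values are intensities, limma 3.58.1 in R 4.3.3 was used. Background correction used the detection p-values (as in neqc, offset 16), followed by quantile normalization and log2. This gives all arrays 1 distribution, and the offset understates changes of dim probes. Probes detected on at least 3 arrays were kept, 13841 of 25697 (53.9%). The comparison used lmFit and eBayes, no covariates, two-sided tests and Benjamini-Hochberg adjustment over all kept probes. An exact permutation of 3 against 3 arrays cannot give a p below 0.1. The calls therefore rest on the normal error model of limma, with variance shared across probes. For lists, the brightest kept probe stood for a gene, and older names were matched through RefSeq. Members and lists were chosen with earlier results of these data known. By rule the text names all members, the 3 called genes with the largest change in each of the 4 related lists, the largest change in each marker list and the 5 probes most like Tnc, and other called genes of small counts, Itga9, Itgav, Yap1, Ankrd1 and further markers were named after their values were seen. A bound sets the group mean against the lowest detected signal of the other group's arrays. The pipeline was also run on simulated data with independent noise on each array, a simpler setting than these arrays, and its outcome is not reported here. Alternatives were other background corrections, normalizations, filters, variance models, a replicate block, a stricter threshold and leaving out each array. The number of arrays limits the precision.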

Additional observations from a re-analysis of the deposited data

How the results depend on the processing

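Slide as a block was also to be tried but was not run, since the files name no slides. The other 18 were run, of which 17 gave changes of probes (16 for Tnc ILMN_1251943 and Sparcl1, not detected on all arrays). The calls of Tgfbi and Ctgf held in each of these. No Tnc probe changed direction, but Tnc was chosen for its fall, so this is only a description. The filters, the variance trend and the replicate block cannot alter a mean difference. In those fits the change of a probe equalled its reported value by construction. Of 253 comparisons of a single member probe with its reported value, 237 kept direction and side of the threshold (for Tnc, a change by less than the spread between replicates) and 7, all of Tnc probes, moved by more than that spread with weaker or no background correction. Leaving out arrays gave 1507 to 4385 called probes over the array, 2 to 3 member probes called lower and 1 called higher (Tnc not counted), and 2 to 4 calls among other matricellular genes, 2 to 5 among receptors, 3 to 7 among TGF-beta, YAP/TAZ and SRF genes and 2 to 4 among YAP/TAZ targets. At an adjusted p under 0.01, by construction fewer, 1326 probes were called, with 2 other matricellular genes, 2 regulators and 1 YAP/TAZ target. Receptor calls were 5 with median scaling, 5 without background correction and with median scaling, and 5 over probes detected on all 6 arrays. The sign turned for Sparc ILMN_3136561 with median scaling (0.035) and for Cyr61 ILMN_2710253 with cyclic loess (0.00012) and without hSRY-OFF replicate 1 (0.013), hSRY-OFF replicate 2 (0.039) or hSRY-ON replicate 3 (0.11), and for Cyr61 ILMN_2794645 without hSRY-ON replicate 3 (0.24). Leaving out single arrays, the change ranged from -0.16 to 0.11 for the former Cyr61 probe and from -0.81 to 0.24 for the latter. None of these was called, and the cause was not tested. Both groups use replicate numbers 1 to 3, and the labels do not say whether equal numbers pair mice. Same-numbered arrays did not deviate together (r = -0.11, 0.10 and -0.09). With 3 arrays in each group this cannot tell whether the mice were paired. With a replicate block 2657 probes were called, 2 of them other matricellular genes, and Thbs1 at -0.77 was called (limma, adjusted p = 0.0406).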
